A study of Sus scrofa with 12 samples.

Results

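The miRNAs miR-532, miR-500 and miR-362 were examined in the neonatal pig uterus. They were taken as every row of the deposited table named miR-532, miR-500, miR-502, miR-362 or miR-660, with any arm. This gave 4 of 420 rows, namely ssc-miR-532-5p, ssc-miR-532-3p, ssc-miR-500 and ssc-miR-362, where ssc stands for the pig, Sus scrofa. No row was found under the names miR-502 and miR-660. The set was chosen by the measured share of miR-532-5p in the miRNA reads, which was higher in nursed than in replacer-fed gilts. The values of that contrast are therefore given below as a description, with no test.

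Each miRNA hairpin can release a mature strand from its left arm, called 5p, and from its right arm, called 3p. In mammals the hairpins of miR-532, miR-500, miR-362 and their relatives miR-188, miR-501, miR-502 and miR-660 lie close together on the X chromosome at the CLCN5 gene, which encodes a chloride transporter of endosomes, and members can be cut from a shared transcript. In the pig gene table of assembly Sscrofa11.1, MIR532, MIR500 and MIR362 follow each other on chromosome X, next to USP27X on one side and CLCN5 on the other, with no other listed gene between them. Mature miRNAs act by pairing with messenger RNAs and lowering their translation or stability.

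Small RNA had been sequenced from the uterus of gilts (young female pigs), crosses of the breeds Landrace, Yorkshire, Duroc and Hampshire, with 1 animal per library and 4 libraries per group. PND2N gilts nursed freely for 48 h and PND2R gilts were fed a commercial milk replacer for 48 h. These 8 animals were killed when 50 h old. PND0 gilts were newborns, not yet nursed, killed less than 1 h after birth. PND2 denotes the 8 libraries of PND2N and PND2R together. Set against PND0, they differ in age and in having been fed, which cannot be told apart. The whole uterus was used, so a change within cells and a change in the mix of cells cannot be told apart.

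Levels are given as rpm, the reads of a miRNA per 1000000 miRNA reads of its library. Depth, read from the step between the deposited values, ranged from 37462 to 12159233 reads, a 325-fold span. Of the 4 libraries under 100000 reads, 3 were PND2R (replicates 1, 2 and 3) and 1 was PND2N (replicate 2). One read is worth 13.4 to 26.7 rpm in these 4, so the less abundant miRNAs below rest on 0 to 2 reads there. All 95% intervals on single libraries and on pooled reads are exact Poisson or exact binomial intervals and cover counting error only, so those on pooled reads hold no spread between animals. Smooth muscle miRNAs (4 rows of miR-143 and miR-145) summed to 163532 to 291202 rpm in PND2N, 180983 to 209535 in PND2R and 94917 to 177830 in PND0, so the labelled tissue carried its muscle markers. The liver marker miR-122 was at 0 to 13.4 rpm in all libraries. Blood miRNAs (6 rows) summed to 206 to 590.4 rpm in PND2N, 296 to 645 in PND2R and 426 to 669 in PND0, and epithelial ones (2 rows) to 320.3 to 1061, 688 to 1070.1 and 857 to 1135 in the same groups. Endothelial miRNAs (2 rows of miR-126) summed to 10398 to 13972 rpm in PND2N, 9711 to 11944 in PND2R and 12217 to 15349 in PND0. Every PND2R library thus lay below every PND0 library in this sum, and above every PND0 library in the smooth muscle sum. The share of all rows that separate these groups is not given here. Mesenchymal miRNAs (7 rows) summed to 88623 to 161980, 138785 to 158714 and 139305 to 174437 rpm in the same groups, skeletal muscle ones (7 rows) to 2723 to 4819, 2793 to 4318 and 1822 to 2997, and neural ones (7 rows) to 2749 to 2989, 2352 to 2861 and 2083 to 4281. The part of these lists in the results below was not tested.

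miR-532-5p was the most read of the 4 rows in every library. It took a median of 87.5% (range 82.9% to 91.9%) of the reads of the 4 rows and ranked 93rd of 420 rows by mean share. The summed share of the 4 rows was 719.7 ± 84.9 rpm in PND2N, 549 ± 78.1 rpm in PND2R and 657 ± 24.4 rpm in PND0 (SD, n = 4 each). These are shares of reads, which depend on how well each small RNA is ligated and amplified, and not molar amounts. miR-362 averaged 31.2 rpm, miR-500 27.9 rpm and miR-532-3p 25.4 rpm over the 12 libraries, placing them 171st, 177th and 183rd.

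miR-532-5p stood at 597, 694, 700 and 544 rpm in PND2N replicates 1 to 4. In PND2R replicates 1 to 4 it stood at 455, 458, 438 and 553 rpm. In PND0 it stood at 564, 530, 569 and 585 rpm. The PND0 libraries lay close together, 3 of the 4 PND2N libraries lay above all of them, and 3 of the 4 PND2R libraries lay below all of them. The group means were 634 ± 76.0 rpm in PND2N, 476 ± 52.1 rpm in PND2R and 562 ± 23.1 rpm in PND0 (SD, n = 4 each). The order of the means was thus PND2N, PND0, PND2R, and each group overlapped its neighbour in that order.

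**Figure D1:**
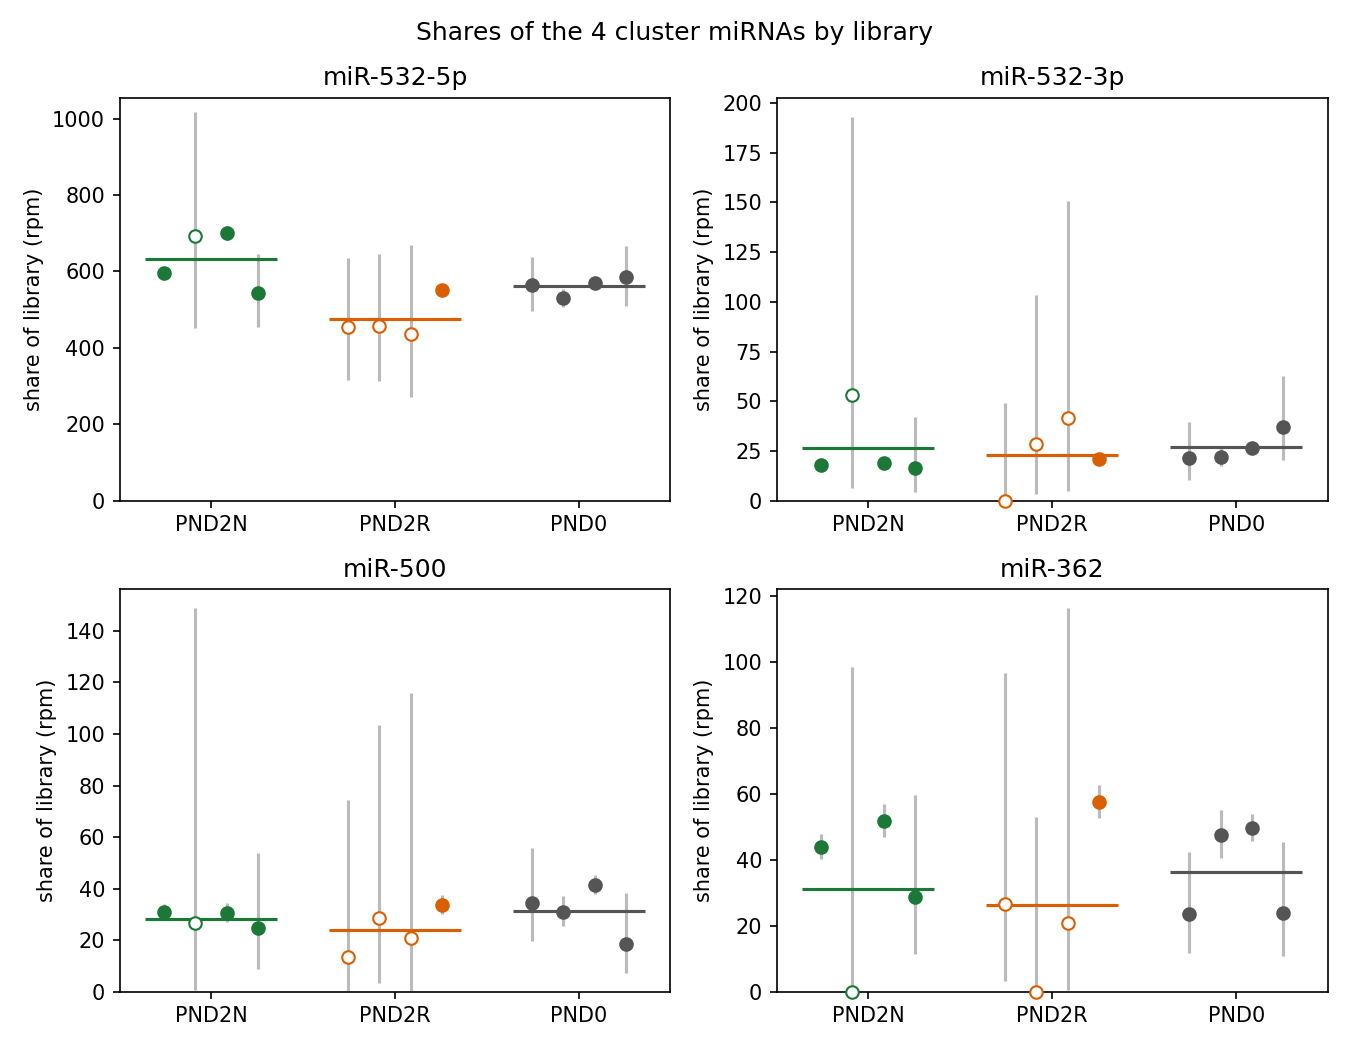
Share of each miRNA in rpm (vertical axis, starting at 0) for each library, in PND2N, PND2R and PND0; points are libraries, open points are libraries under 100000 reads, grey bars are 95% Poisson intervals and horizontal lines are group means. For miR-532-5p the PND0 libraries sit between 530 and 585 rpm, while the open PND2R points sit between 438 and 458 rpm with intervals that reach above 635.

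The contrast that chose the set was modest in size. PND2N lay above PND2R in 15 of 16 pairs of libraries, the ratio of mean shares was 1.33 and the log2 fold change of the share was 0.40, against a median of -0.15 over the 268 rows tested. It was 0.14 to 0.65 in the 23 alternatives tried. By limma 0 of the 268 rows passed in this contrast (0%), with 35 at an unadjusted p under 0.05 (13.1%). The low PND2R values came from its shallow libraries. These held 34, 32 and 21 reads of miR-532-5p, and their 87 reads pooled gave 452 rpm with a 95% interval of 361.8 to 557. The deep PND2R library held 5194 reads and stood at 553 rpm (538 to 568), inside that interval.

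Depth and feeding partly coincide in this contrast, and their parts in it cannot be told apart. Among the 5 libraries over 1000000 reads, miR-532-5p stood at 597 and 700 rpm in PND2N, 553 rpm in PND2R and 530 and 569 rpm in PND0. The nursed libraries were the highest of the 5. Among the 4 libraries under 100000 reads the PND2N library stood at 694 rpm (453 to 1017) and the 3 PND2R libraries at 438 to 458 rpm. Without the 4 shallow libraries the log2 fold change of PND2N over PND2R was 0.14, with a single PND2R library left.

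The other 3 miRNAs of the cluster were also higher by mean share in PND2N than in PND2R, with ratios of 1.17 for miR-500, 1.18 for miR-362 and 1.17 for miR-532-3p. PND2N lay above PND2R in 10, 9 and 7 of 16 pairs of libraries in that order, so the groups overlapped. In the deep libraries the sign was the other one. There miR-500 averaged 30.7 rpm in PND2N and 33.6 rpm in PND2R, miR-362 47.8 and 57.5 rpm, and miR-532-3p 18.4 and 21.1 rpm, with 2 libraries of PND2N and 1 of PND2R. The log2 fold change over all libraries turned with single libraries left out. That of miR-362, 0.19, was -0.33 without PND2R replicate 2, -0.10 without PND2N replicate 3 and -0.036 without PND2N replicate 1. That of miR-532-3p, 0.28, was -0.22 without PND2R replicate 1 and -0.018 without PND2N replicate 2.

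Across age, miR-532-5p did not pass the test. Over the 8 PND2 libraries it averaged 555 ± 104 rpm (SD, n = 8), against 562 ± 23.1 rpm in PND0 (SD, n = 4), with PND2 above PND0 in 14 of 32 pairs. By limma on log2(share + 10 rpm), adjusted over 268 rows, its log2 fold change was -0.04 ± 0.15 (SE; 95% interval -0.36 to 0.28; adjusted p = 0.976). The interval thus spans changes of either sign. This contrast averages the fed groups and does not use their difference, which chose the set. In the same test 0 of the 268 rows passed (0% called), with 16 at an unadjusted p under 0.05 (5.97%).

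Each fed group alone shares its libraries with the contrast that chose the set, and both share the same PND0 libraries. For PND2N against PND0 the log2 fold change of miR-532-5p was 0.16 ± 0.17 (SE; 95% interval -0.21 to 0.54; limma adjusted p = 0.809), with PND2N above in 13 of 16 pairs. For PND2R against PND0 it was -0.24 ± 0.17 (-0.61 to 0.13; limma adjusted p = 0.718), with PND2R above in 1 of 16 pairs. The part of the marker sums given above in these changes of miR-532-5p was not tested. Neither change of miR-532-5p passed, and limma passed 0 of 268 rows in both comparisons (0%), with 22 (8.21%) and 29 (10.8%) at an unadjusted p under 0.05. Among the deep libraries PND2R stood at 553 rpm and PND0 averaged 549.7 rpm.

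**Figure D2:**
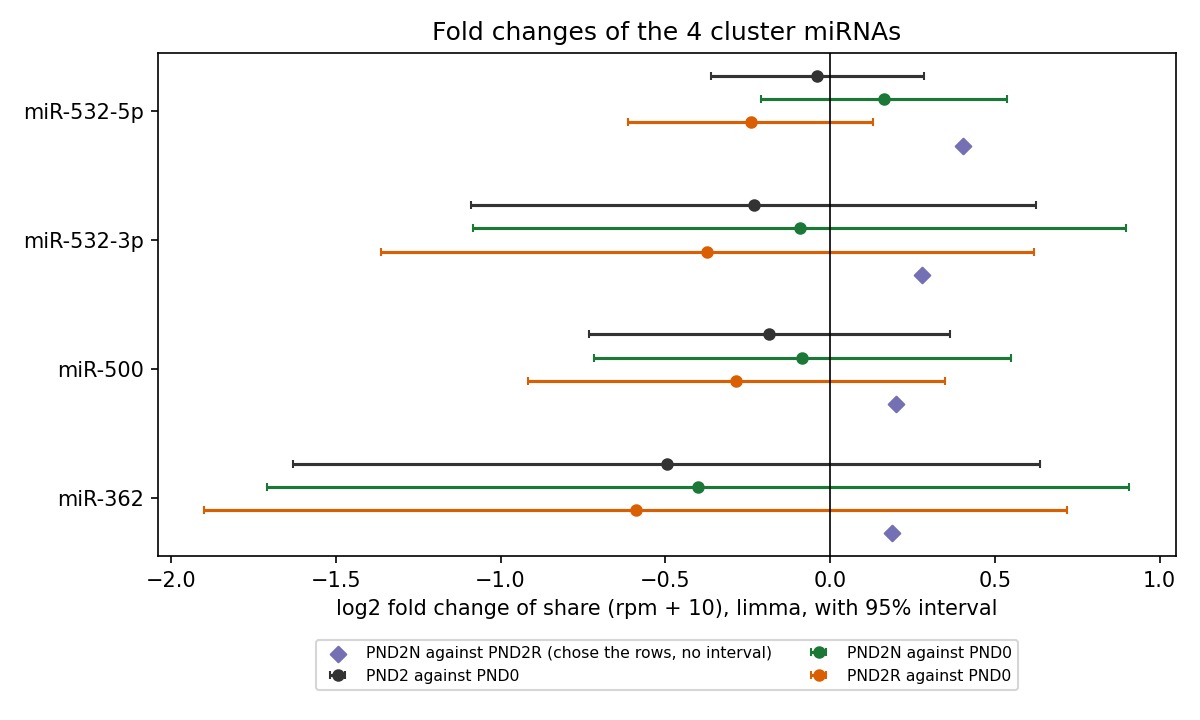
Log2 fold change of the share (horizontal axis, on the log2(rpm + 10) scale) of each miRNA in 4 comparisons; points are limma estimates over 12 libraries, bars are 95% intervals, and diamonds mark the contrast that chose the set, drawn without an interval. All intervals against PND0 include 0, from -0.36 to 0.28 for miR-532-5p to -1.63 to 0.64 for miR-362 in PND2 against PND0.

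miR-500 comes from the hairpin next to miR-532 in the gene order above. It stood at 30.8, 26.7, 30.6 and 24.7 rpm in PND2N replicates 1 to 4, from 364, 1, 257 and 6 reads. It stood at 13.4, 28.6, 20.8 and 33.6 rpm in PND2R, from 1, 2, 1 and 316 reads, and at 34.4, 30.9, 41.4 and 18.6 rpm in PND0, from 16, 110, 503 and 7 reads. The groups overlapped throughout. Its log2 fold change was -0.18 ± 0.26 for PND2 against PND0 (SE; 95% interval -0.73 to 0.36; limma adjusted p = 0.868). For PND2N against PND0 it was -0.08 ± 0.30, and for PND2R against PND0 -0.28 ± 0.30.

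With the reads of each group pooled, which weights the deep libraries, miR-500 stood at 30.7 rpm in PND2N (28.3 to 33.1), 33.4 rpm in PND2R (29.8 to 37.2) and 38.4 rpm in PND0 (35.5 to 41.5). The PND0 value rests mostly on replicate 3, the library with the highest share of miR-500.

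miR-362 comes from the hairpin between MIR500 and CLCN5 in that gene order. It stood at 43.8, 0, 51.8 and 28.9 rpm in PND2N replicates 1 to 4. It stood at 26.7, 0, 20.8 and 57.5 rpm in PND2R and at 23.7, 47.4, 49.7 and 23.9 rpm in PND0. The 2 zeros were counts of 0 reads in shallow libraries, where 3 reads, the one-sided limit that a count of 0 allows, would be 80.1 rpm in PND2N replicate 2 and 43.0 rpm in PND2R replicate 2 (upper ends of the two-sided 95% intervals 98.5 and 52.8 rpm). Its log2 fold change was -0.50 ± 0.53 for PND2 against PND0 (SE; 95% interval -1.63 to 0.64; limma adjusted p = 0.860). Without the 4 shallow libraries, which hold both zeros, it turned to 0.39 (limma adjusted p = 0.849).

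The share of miR-362 differed between deep and shallow libraries. It was 43.8 to 57.5 rpm in the 5 libraries over 1000000 reads and 0 to 28.9 rpm in the 7 libraries under 1000000 reads, with no overlap. Of the 268 rows tested, 19 (7.09%) separated the 2 depth classes in this direction and 3 (1.12%) in the other. Pooled, miR-362 had 2265 reads and 50.0 rpm (95% interval 47.9 to 52.1) in the deep libraries, against 30 reads and 22.8 rpm (15.4 to 32.6) in the others. The same pooling gave 34.2 rpm (32.5 to 35.9) and 25.9 rpm (17.9 to 36.2) for miR-500, 21.3 and 25.9 rpm for miR-532-3p, and 594 and 554 rpm for miR-532-5p. Within the deep libraries miR-362 averaged 47.8 rpm in PND2N (n = 2), stood at 57.5 rpm in PND2R (n = 1) and averaged 48.6 rpm in PND0 (n = 2).

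**Figure D3:**
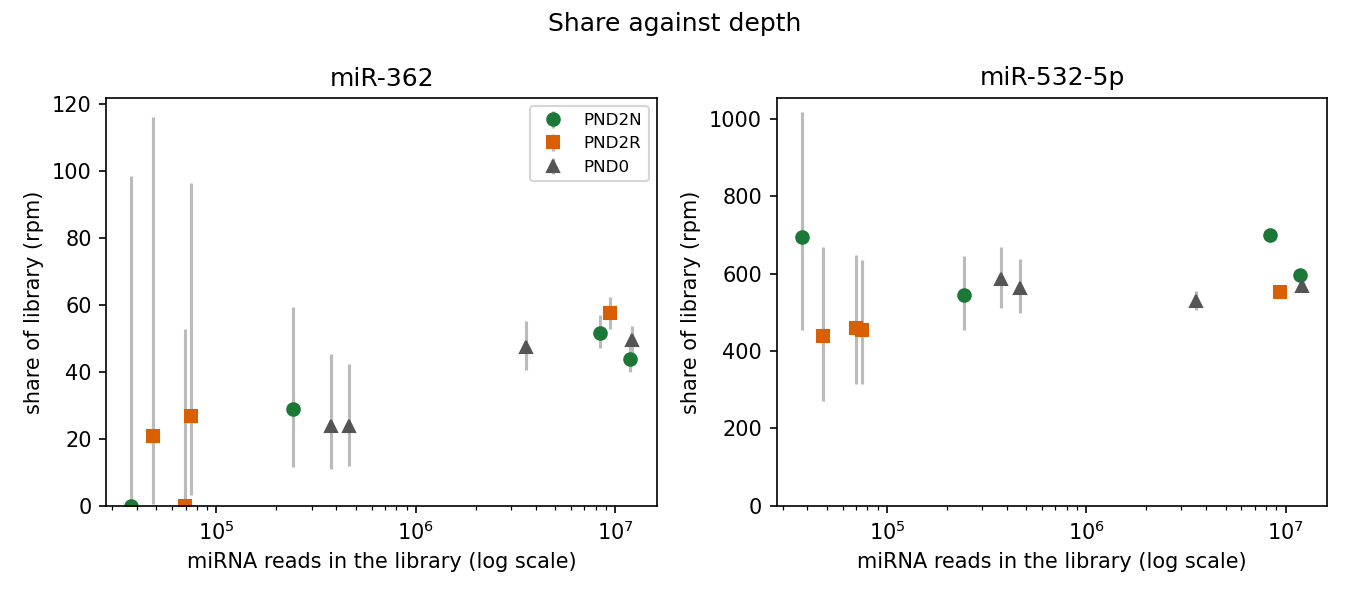
Share in rpm (vertical axis) of miR-362 and of miR-532-5p against the miRNA reads of each library (horizontal axis, log scale), with 95% Poisson intervals; circles are PND2N, squares PND2R and triangles PND0. All 5 libraries over 1000000 reads hold miR-362 at 43.8 rpm or more and all others at 28.9 rpm or less, while miR-532-5p spans 530 to 700 rpm over 1000000 reads and 438 to 694 rpm at lower depth.

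miR-532-3p is the other arm of the miR-532 hairpin. It stood at 17.7, 53.4, 19.0 and 16.5 rpm in PND2N replicates 1 to 4, at 0, 28.6, 41.7 and 21.1 rpm in PND2R and at 21.5, 22.2, 26.3 and 37.2 rpm in PND0. The value of 53.4 rpm came from 2 reads and the 0 from a library in which 3 reads would be 40.1 rpm. Its log2 fold change was -0.23 ± 0.40 for PND2 against PND0 (SE; 95% interval -1.09 to 0.63; limma adjusted p = 0.880). With reads pooled it stood at 18.3 rpm in PND2N (16.5 to 20.3), 21.1 rpm in PND2R (18.3 to 24.2) and 25.5 rpm in PND0 (23.2 to 28.1).

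Both arms come from 1 hairpin and are read in the same library, so their ratio does not depend on the library total. In the deeper libraries the 3p arm made up less of the miR-532 reads at PND2 than at birth. It was 2.88% (95% interval 2.51 to 3.29), 2.65% (2.26 to 3.09) and 2.94% (0.807 to 7.36) of both arms in PND2N replicates 1, 3 and 4, and 3.67% (3.19 to 4.21) in PND2R replicate 4. In PND0 it was 3.68% (1.78 to 6.66), 4.01% (3.19 to 4.98), 4.42% (3.96 to 4.92) and 5.98% (3.31 to 9.83). All 4 PND2 values lay below all 4 PND0 values, but PND2R replicate 4 and PND0 replicate 1 were nearly equal. These PND2 libraries were mostly nursed, and miR-532-5p chose the set by its higher share in nursed gilts. The values are therefore a description, and over all 12 libraries the groups overlapped.

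The 4 shallow libraries held 0 to 2 reads of the 3p arm, at 0% to 8.70%, and they end this separation. Over all 12 libraries the log2 ratio of 5p to 3p averaged 4.52 ± 1.03 in PND2 (SD, n = 8) and 4.39 ± 0.32 in PND0 (SD, n = 4), a difference of 0.13 (two-sided exact permutation p = 0.802, where the smallest possible is 0.00202; adjusted p = 0.952 over 6 ratios). Over the 8 libraries with more than 100000 reads it averaged 4.96 ± 0.21 in PND2 and 4.39 ± 0.32 in PND0 (SD, n = 4 each), a difference of 0.57 with PND2 above in 16 of 16 pairs (two-sided exact permutation p = 0.0286, the smallest 70 splits can give; adjusted p = 0.171 over 6 ratios). With so few splits a single ratio at the smallest p cannot pass the adjustment over 6, so the 8 libraries could not decide this. Their PND2 libraries were PND2N replicates 1, 3 and 4 and PND2R replicate 4, so mostly nursed. miR-532-5p chose the set by its higher share in nursed gilts. The separation and its p in these 8 libraries are therefore not independent of that choice. Among the 34 hairpins with both arms read in all 8 of those libraries, 2 separated the groups upwards (5.88%), miR-532 and miR-455, and 0 downwards (0%), with a median change of 0.10 over all 34.

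**Figure D4:**
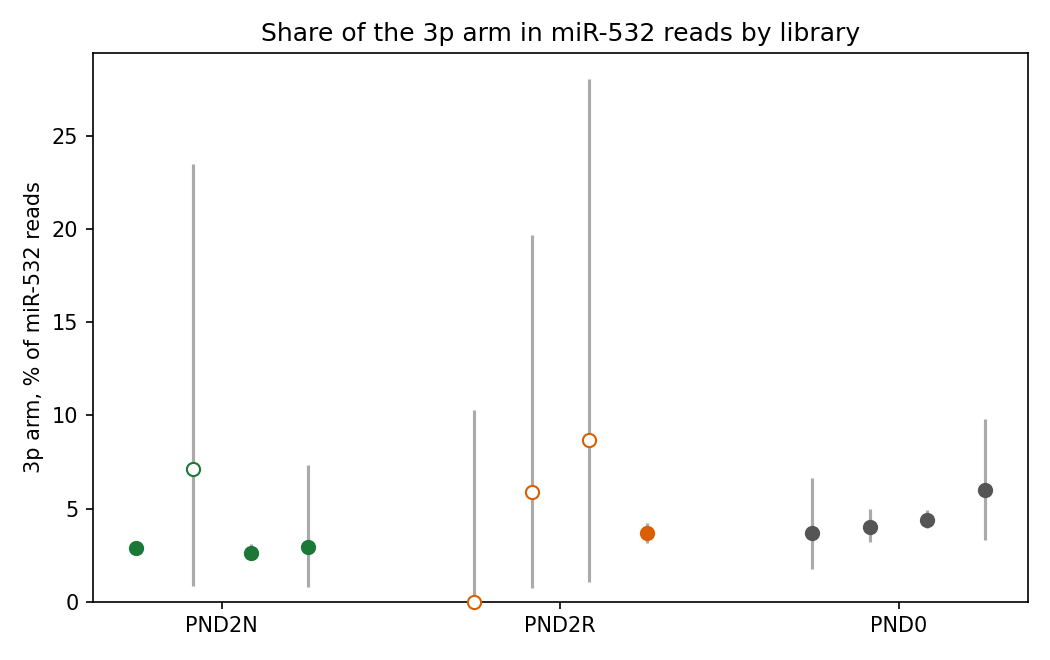
Reads of the 3p arm as a percentage of the reads of both miR-532 arms (vertical axis, starting at 0) in each library of PND2N, PND2R and PND0, with exact 95% binomial intervals; open points are libraries under 100000 reads. The filled PND2 points lie between 2.65% and 3.67% and the PND0 points between 3.68% and 5.98%, while the open points span 0% to 8.70% with wide intervals.

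The other 5 ratios between members were compared in the same way, and none of the 6 passed over all 12 libraries (lowest adjusted p = 0.952). The log2 ratio of miR-532-5p to miR-500 was 4.17 ± 0.30 in PND2 (SD, n = 8) and 4.19 ± 0.48 in PND0 (SD, n = 4; exact permutation p = 0.952). That of miR-532-5p to miR-362 was 4.29 ± 1.01 in PND2 and 4.01 ± 0.59 in PND0 (exact permutation p = 0.665). With reads pooled by group, 1 read of miR-500 stood beside 20.8 reads of miR-532-5p in PND2N, 16.5 in PND2R and 14.6 in PND0. For miR-362 there were 13.6, 9.73 and 11.7 reads of miR-532-5p in the same groups. Because miR-532-5p chose the set by its higher share in PND2N than in PND2R, these pooled ratios are not independent of that choice. The pooled PND2R values rest almost wholly on replicate 4, which held 316 of the 320 reads of miR-500 and 540 of the 543 of miR-362.

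The rows whose pattern over the 12 libraries was closest to miR-532-5p were sought by the root mean square difference in log2(share + 10 rpm) after each row was centred. Among 159 other rows read in all 12 libraries the median distance was 0.42. The closest was miR-99b at 0.17, a member of the miR-99 and miR-100 family, with 2469 ± 156 rpm in PND2N, 1975 ± 242 rpm in PND2R and 2149 ± 296 rpm in PND0 (SD, n = 4 each). Next came both rows of let-7f at 0.18, which can share reads, with 22145 ± 2347, 19562 ± 849 and 24696 ± 2791 rpm in the same groups for the nearer row. Both arms of miR-148a followed, the 5p arm at 0.19 and the 3p arm at 0.20. miR-148a-5p stood at 138 ± 34.9 rpm in PND2N, 107 ± 22.4 rpm in PND2R and 132 ± 8.41 rpm in PND0. All 5 rows had their lowest mean in PND2R, as miR-532-5p did. They were picked for closeness to miR-532-5p over these same libraries, so this is not a separate result. A short distance also favours rows that vary little. miR-500, the only other member read in all 12 libraries, was 16th closest at 0.28.

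**Figure D5:**
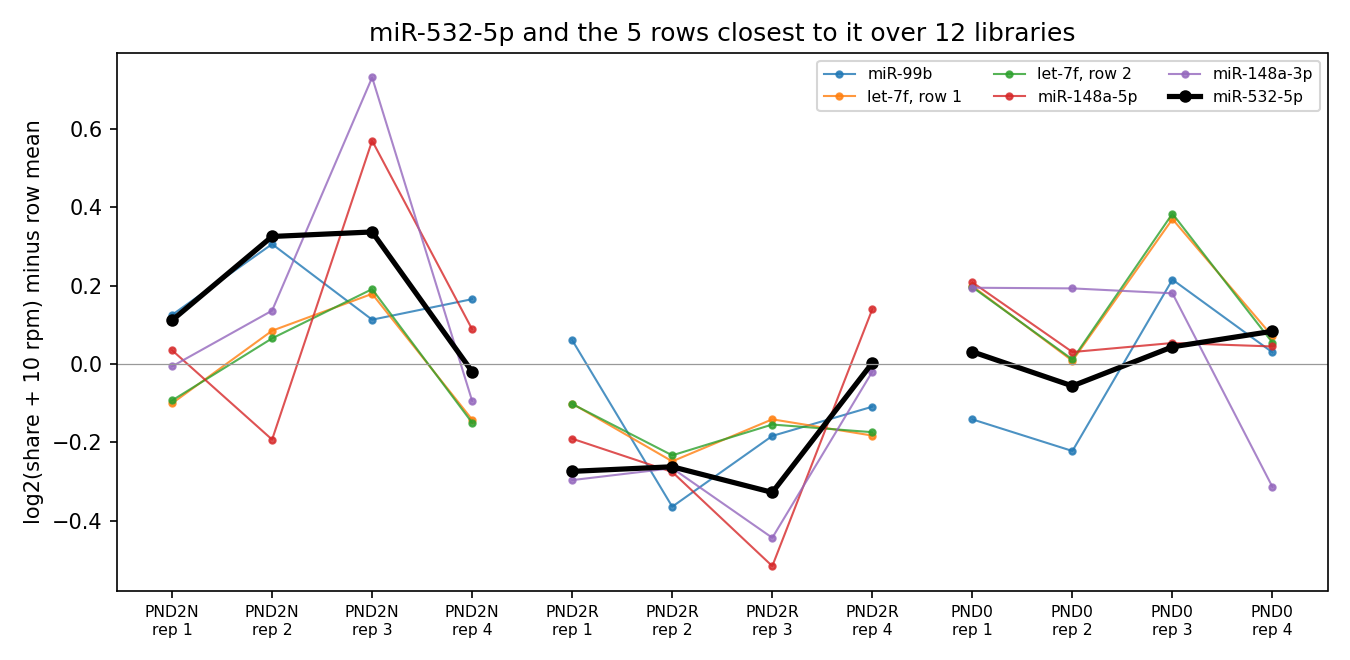
Log2(share + 10 rpm) minus the mean of each row (vertical axis) in the 12 libraries (horizontal axis, in group order) for miR-532-5p in black and the 5 closest rows in colour; lines join the libraries of a group only to guide the eye. miR-532-5p and the 5 rows are low in PND2R replicates 2 and 3, and miR-148a-3p departs most in PND2N replicate 3.

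Other miRNAs gave a frame for these sizes. The 20 rows next to miR-532-5p in mean share had a median log2 fold change of -0.16 for PND2N against PND2R, with 6 above 0 and 14 below. For PND2 against PND0 the same 20 rows had a median of -0.16, with 5 above 0 and 15 below. Of the 27 rows of other miRNAs that are X-linked in mammals, 22 were tested, and for PND2 against PND0 0 passed by limma in either direction, with 6 above 0, 16 below and a median of -0.29. All 268 rows had a median of -0.13 in that comparison, with 76 above 0 (28.4%) and 192 below. The 4 rows of the cluster were all below 0 there with a median of -0.21, but miR-532-5p turned to 0.029 with totals scaled by the trimmed mean of M values and to 0.063 with quantile normalization. Of the other miRNAs of the cluster, miR-188 and miR-501 were sought by name and no row was found.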

How the data were processed

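Uterine small RNA libraries of 12 gilts were grouped by the feeding given in the labels, and replicates were numbered in accession order. Per the labels' protocols, total RNA entered a NEBNext small RNA kit and was read on an Illumina HiSeq. The submitters' processing notes name Sscrofa 10.2 and FastQC. How reads were aligned, counted and normalized is not given in the sources used here. For 420 miRNA rows, a normalized signal was deposited by the authors. Values above 1 are whole multiples of 1 step per library (100% within 0.1 of a read up to 1000 reads), and lower values were raised to 1, so that at most 12 reads of a row can be hidden in a library, and 0 in the 5 libraries whose step is above 1.

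From these values the step gave the reads and the depth, and shares in rpm were taken over values above 1. The main test was limma 3.58.1 (R 4.3.3, empirical Bayes with trend, two-sided, Benjamini-Hochberg, threshold 0.05) on log2(share + 10 rpm), 1 coefficient per group over 12 libraries, for the 268 rows with reads in 4 or more libraries. Fold changes on this scale understate those of low miRNAs. Ratios between members used reads + 0.5 and an exact permutation test over libraries. The test code was run on simulated data whose spread was set by hand and not fitted to these libraries. Those runs do not show how the tests behave at the spread seen here. Count models were planned and not run, because an automatic check of whole reads failed for most columns, in which the floor of 1 disturbs it. Chi-square per degree of freedom was 2.98 to 1093 over 18 replicate pairs and no 2 columns were identical. The rows named were all members and the 5 closest rows. The members, lists and tests were chosen with earlier results of these data known. Alternatives changed the scaling, pseudocount, filter, weights and libraries. matplotlib 3.10.9 drew the figures.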

Additional observations from a re-analysis of the deposited data

Results flagged for a closer look

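In 2 of 30 sets of 4 libraries (the share of each of the 4 rows and 6 log2 ratios, in each group), 1 library stood apart by the gap to its nearest neighbour over the whole range (critical value 0.829). Chance flags about 1 in 20 such sets. miR-532-3p stood at 53.4 rpm in PND2N replicate 2, against 16.5 to 19.0 rpm in the other PND2N libraries, and this rests on 2 reads. The log2 ratio of miR-500 to miR-532-3p was -0.95 in PND0 replicate 4, against 0.48 to 0.65 in the other PND0 libraries. That ratio rests on 7 reads of miR-500 and 14 of miR-532-3p.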

How the results depend on the processing

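No paired analysis was possible because the replicate numbers were given in accession order and pair no samples. Of the 268 rows, 0 passed in each comparison, except that library weights passed 1 row, miR-206, for PND2 against PND0 (adjusted p = 0.0327). Leaving out 1 library gave 0 to 3 passing rows for PND2N against PND2R; the 3, miR-129a-5p, miR-129b and miR-490-5p, passed without PND2R replicate 4. These were named after their values were seen, and no member passed under any alternative run. The deposited scale moved the median of all rows for PND2N against PND0 to -0.49, from -0.20 on shares, and there miR-532-5p was at -0.20. Values against PND0 that changed sign, none of which passed, were as follows. With trimmed-mean scaling, miR-532-5p was at 0.029 for PND2, and miR-500 at 0.031 and miR-532-3p at 0.023 for PND2N. With quantile normalization, miR-532-5p was at 0.063 for PND2 and miR-500 at 0.14 for PND2N. With library weights, miR-362 was at 0.19 for PND2N. Without the 4 libraries under 100000 reads, PND2 values were 0.047 for miR-532-5p, 0.022 for miR-500 and 0.39 for miR-362, the PND2N value of miR-362 was 0.18, and PND2R values were 0.11 for miR-500 and 0.60 for miR-362. For the log2 ratios of PND2 against PND0, a pseudocount of 1 read gave -0.072 for miR-532-5p to miR-532-3p and -0.022 for miR-532-5p to miR-362, and deposited values gave 0.21 for miR-532-5p to miR-500. Without the shallow libraries these ratios were 0.11 for miR-532-5p to miR-500, -0.28 for miR-532-5p to miR-362, 0.85 for miR-362 to miR-532-3p and 0.39 for miR-362 to miR-500. With 1 library left out, log2 fold changes ranged from -0.38 to 0.016 for miR-532-3p in PND2, and in PND2N from -0.25 to 0.030 for miR-500, -0.69 to 0.18 for miR-362 and -0.39 to 0.035 for miR-532-3p; in PND2R miR-532-3p ranged from -0.67 to 0.12. Ratios then ranged from -0.10 to 0.33 (miR-532-5p to miR-532-3p), -0.15 to 0.22 (miR-532-5p to miR-500), -0.24 to 0.30 (miR-500 to miR-532-3p), -0.48 to 0.22 (miR-362 to miR-532-3p) and -0.52 to 0.024 (miR-362 to miR-500). The causes of these turns were not tested. Count models were not run. Depth limits miR-500, miR-362 and miR-532-3p most, with 0 to 2 reads in each shallow library.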
